A study of Mus musculus with 39 samples.

Results

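The 10 genes described here belong to transforming growth factor beta (TGF-beta) and YAP signalling and were followed across AB1-HA mesothelioma tumours from mice given tretinoin, immune checkpoint therapy (ICT) or both. They were chosen by gene symbol as 3 ligands (Tgfb1, Tgfb2, Tgfb3), 2 receptors (Tgfbr1, Tgfbr2), 2 SMAD proteins (Smad3, Smad7) and 3 target genes (Ctgf, Cyr61, Ankrd1). Of these 10 genes, 8, out of 39676 genes in the count table, were matched, and Tgfb3 and Ankrd1 were not analysed here. The genes were picked with earlier fits of these same counts in view and the contrasts that guided the choice were not recorded, so the adjusted p-values given for them describe these tumours and are not independent evidence.

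Bulk RNA sequencing had been done on 39 tumours grown under the skin of young adult BALB/c mice of both sexes, from AB1-HA cells, a mouse mesothelioma line that carries influenza haemagglutinin as a foreign antigen. All hosts were immunocompetent and all tumours came from the same transplanted line. There were 10 tumours from mice given PBS and 9 from mice given tretinoin (all-trans retinoic acid, 5 mg/kg in 5 doses from day 4). Another 10 came from mice given ICT (100 µg each of antibodies to CTLA-4 and PD-L1 on day 7) and 10 from mice given both. The methods name PBS as the control for ICT and PBS with DMSO as the control for tretinoin, and the control tumours are labelled PBS only. Doses are as labelled. The paper's figure legends instead give 10 mg/kg for tretinoin against PBS, and 4 doses of 5 mg/kg where all treatments are compared. Tumours were removed on day 9, and in the combination group a second tumour left in the mouse was watched for outcome, which gave 6 responders and 4 non-responders. In the tumour names, each leading digit belongs to 1 treatment, 2 digits per treatment, so whatever those digits stand for cannot be told apart from the treatment. Tumours that share a leading digit are called a name series. Tumours are called here by the number in their name.

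TGF-beta ligands are secreted in a latent form, and once released they bring the type II receptor Tgfbr2 and the type I receptor Tgfbr1 together, which phosphorylates SMAD2 and SMAD3 and carries them to the nucleus with SMAD4. YAP and its relative TAZ are co-activators held back by the Hippo kinases and acting through the TEAD factors. Both pathways induce Ctgf and Cyr61, secreted matricellular proteins of the CCN family. In tumours the pathways are known for matrix deposition, for scarring and for restraint of T cells.

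Total counts per tumour ran from 14033046 to 37951183 (median 18548168). Levels are given in CPM, counts scaled to a common library total, after scaling by the trimmed mean of M values (TMM). The retinoid-induced gene Cyp26b1, whose product breaks retinoic acid down, had median levels of 8.33 CPM with PBS, 317 CPM with tretinoin, 15.9 CPM with ICT and 120 CPM with the combination, and every tumour labelled as given tretinoin exceeded every other tumour. Of 5 mesothelial and mesothelioma markers in the table, Pdpn was at 57.8 to 95.2 CPM, while Wt1 had a median of 1.10 CPM and Krt19, Calb2 and Upk3b had medians from 0 to 0.241 CPM. Combination tumour 25, a non-responder, stood apart in the summed level of 9 immediate early genes, which was 1824 CPM there and 451 to 639 CPM in the other 9 combination tumours.

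The 8 genes lay on 7 chromosomes in GENCODE M21 (GRCm38), matched by versioned gene identifier, and all were protein coding. Ctgf (ENSMUSG00000019997.11) was at chr10:24595442-24598683 on the plus strand, Cyr61 (ENSMUSG00000028195.4) at chr3:145646976-145649981 on the minus strand, Smad3 (ENSMUSG00000032402.12) at chr9:63646767-63757994 on the minus strand and Tgfb1 (ENSMUSG00000002603.15) at chr7:25687002-25705077 on the plus strand. A transcript on the opposite strand, Gm15270, shared 665 exonic bases with Ctgf, and another, Gm29491, shared 124 with Tgfb2. Whether the counting used strand is not given in the sources used here, so reads in those stretches could not be told apart.

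Between genes, levels were compared per kilobase of exon. In the 10 PBS tumours Cyr61 was at 54.2 ± 9.67 CPM per kb (SD), Ctgf at 45.8 ± 8.28 and Tgfbr2 at 40.1 ± 2.79, and each of these neighbours overlapped within 1 SD. Smad3 followed at 17.9 ± 0.805 CPM per kb, Tgfbr1 at 15.4 ± 1.46, Tgfb1 at 11.2 ± 1.52, Smad7 at 3.28 ± 0.359 and Tgfb2 at 0.618 ± 0.121, none overlapping the next within 1 SD. Tgfb2 rested on 27 to 145 reads per tumour, the fewest of the 8 genes.

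**Figure D1:**
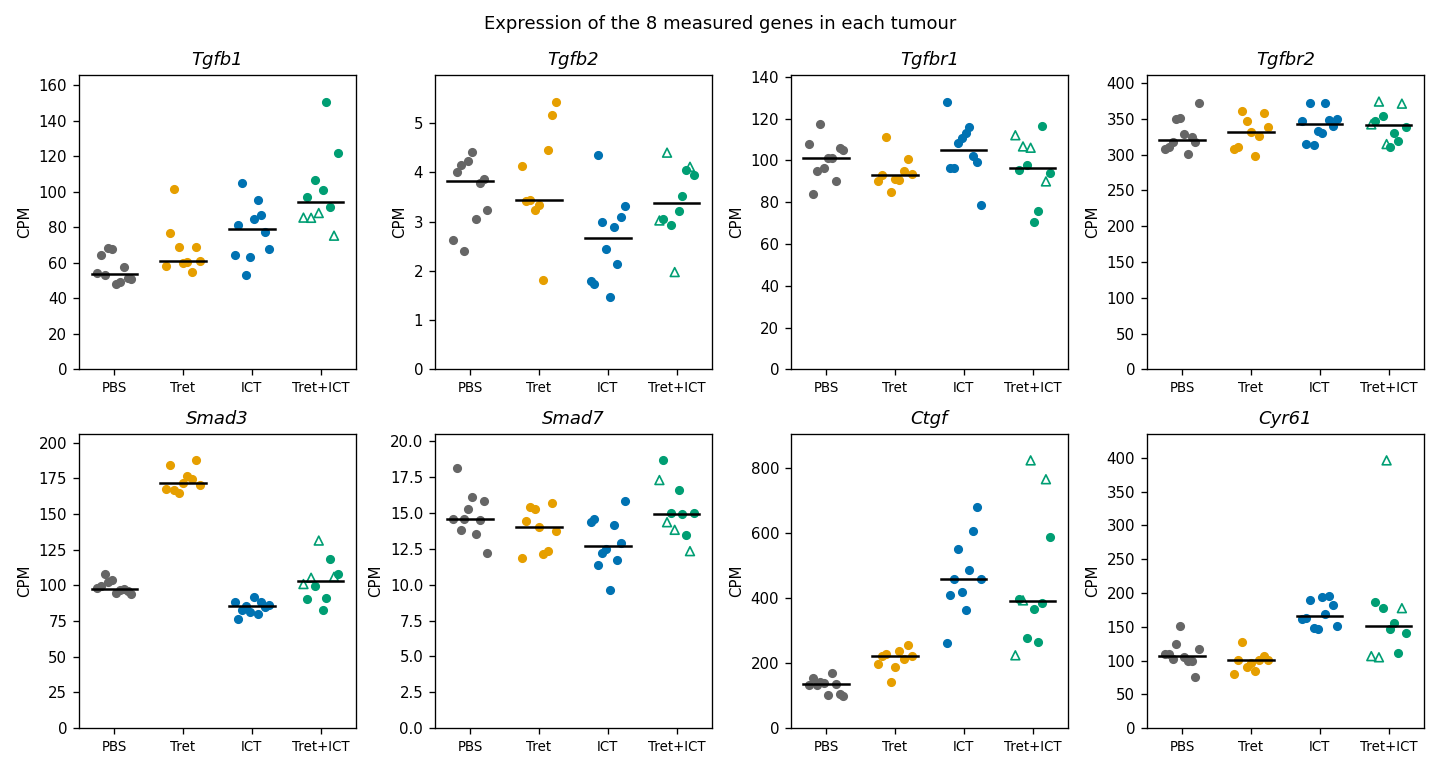
Level (CPM, linear axis from 0) of each of the 8 genes in every tumour, by treatment group. Each point is 1 tumour, open triangles are combination non-responders and black lines are group medians. Smad3 separated the tretinoin tumours (165 to 188 CPM) from all others, and Ctgf was at 262 CPM or above in every ICT tumour against at most 170 CPM with PBS.

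Smad3, the receptor-activated transducer of TGF-beta signals, was the gene most clearly marked by tretinoin. Its lowest, median and highest levels were 94.0, 97.8 and 108 CPM with PBS and 165, 172 and 188 CPM with tretinoin. All 9 tretinoin tumours lay above all 10 PBS tumours. How many of all genes separated treatment groups in this way was not counted, here or below. Such separation is therefore given as description only. It rose by a log2 fold change of 0.81 (SE 0.04, 95% interval 0.74 to 0.88, adjusted p = 1.04e-12, edgeR quasi-likelihood test). In the 4 pairings of a tretinoin name series with a PBS name series the log2 fold change ran from 0.73 to 0.89, and Smad3 passed in all 4. Such pairings reuse each series, here and below, so they are not independent repeats.

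With ICT alone Smad3 moved the other way. Its levels were 76.6, 85.2 and 91.9 CPM (lowest, median, highest), and all 10 ICT tumours lay below all 10 PBS tumours. The fall was small, by 0.23 on the log2 scale (SE 0.04, edgeR adjusted p = 0.000553), and passed in 2 of the 4 name series pairings, all of which had the same sign.

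In combination tumours Smad3 sat near the PBS level. It had a lowest value of 82.8 CPM, a median of 103 CPM and a highest of 131 CPM, the last in tumour 25. All 10 lay below every tretinoin tumour and 7 of 10 lay above every ICT tumour, whereas they straddled the PBS range, with 2 above it and 3 below it. Against tretinoin alone Smad3 fell by 0.75 (SE 0.07, edgeR adjusted p = 4.27e-06), and against ICT alone it rose by 0.29 (SE 0.07, edgeR adjusted p = 0.0203). Against PBS the log2 fold change was 0.06 (95% interval -0.06 to 0.19, edgeR adjusted p = 0.404). The name series pairings had the same sign throughout against both single agents, and Smad3 passed in 4 of 4 against tretinoin (-0.81 to -0.69) and in 0 of 4 against ICT (0.23 to 0.35).

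The effect of tretinoin on Smad3 therefore differed with and without ICT, by an interaction of -0.52 on the log2 scale (SE 0.07, 95% interval -0.67 to -0.37, edgeR adjusted p = 9.42e-05). It was the only one of the 8 genes to pass, in a fit in which 0.267% of 14977 genes had a negative interaction and 0.0401% a positive one. Without tumour 25 the interaction was -0.56 (edgeR adjusted p = 1.99e-06). Cyp26b1 was also lower in the combination (53.2 to 170 CPM) than with tretinoin alone (240 to 384 CPM), without overlap, and so was the retinoid-induced dehydrogenase gene Dhrs3 (112 to 203 against 254 to 324 CPM). Their part in the Smad3 result was not tested.

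**Figure D2:**
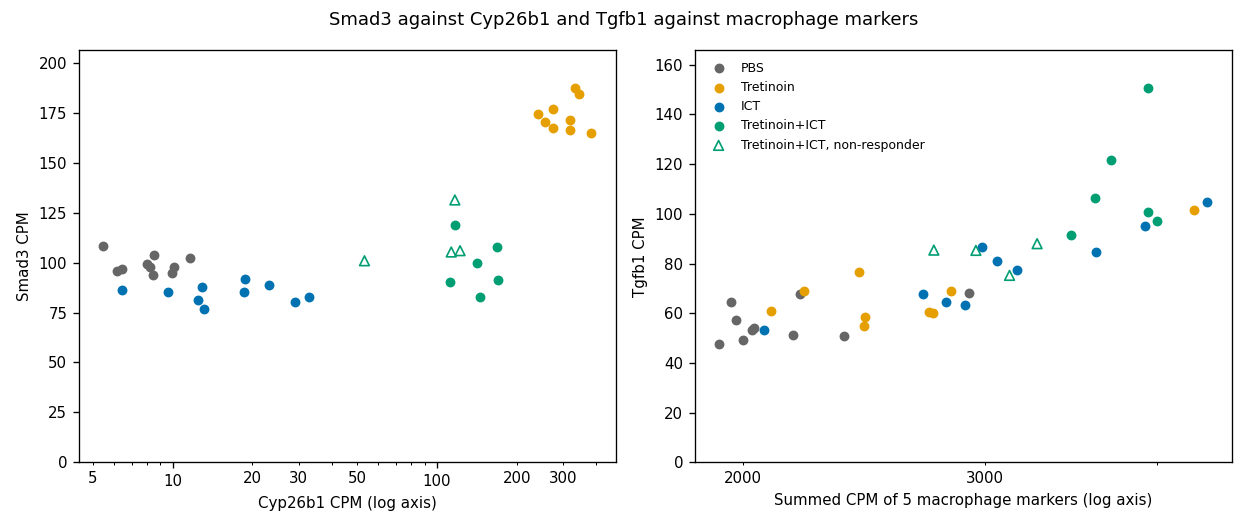
Left, Smad3 level (CPM, linear axis) against Cyp26b1 level (CPM, log axis) in the 39 tumours. Right, Tgfb1 level (CPM, linear axis) against the summed level of 5 macrophage markers (CPM, log axis). Tretinoin tumours stood alone at the upper right of the Smad3 panel, with the combination tumours between 53.2 and 170 CPM of Cyp26b1 but at 82.8 to 131 CPM of Smad3. In the Tgfb1 panel the 6 responders, at 91.6 CPM and above, lay above the 4 non-responders (open triangles).

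Smad3 rose with tretinoin and fell by less with ICT, while Cyr61 rose with ICT and did not pass with tretinoin alone. No promoter window was available for Ctgf. The 250 bases before the RefSeq start site of Smad3 are shown beside those of Cyr61. They are from RefSeq on GRCm38 (chr9:63757995-63758244, minus strand, and chr3:145649986-145650235, minus strand), are written 5′ to 3′ in the direction of the gene, and are reference sequence, not read from these BALB/c tumours. Capitals mark matches to the TEAD letters GGAATG or the SMAD letters CAGAC on either strand.
Smad3: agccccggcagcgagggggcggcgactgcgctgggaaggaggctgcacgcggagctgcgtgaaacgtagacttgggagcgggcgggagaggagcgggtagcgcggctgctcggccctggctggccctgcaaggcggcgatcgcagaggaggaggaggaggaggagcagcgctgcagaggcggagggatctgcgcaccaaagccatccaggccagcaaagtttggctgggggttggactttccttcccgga
Cyr61: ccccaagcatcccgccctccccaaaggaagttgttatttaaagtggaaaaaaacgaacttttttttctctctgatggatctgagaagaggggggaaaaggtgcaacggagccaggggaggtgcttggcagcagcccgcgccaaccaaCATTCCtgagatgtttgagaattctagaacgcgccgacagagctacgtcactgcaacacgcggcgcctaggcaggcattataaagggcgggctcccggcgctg

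Cyr61 held 1 TEAD match, on the reverse strand at positions -103 to -98 from the start, and such a match is held by 12.6% of 32851 promoter windows of the same length. Neither window held CAGAC (42.2% of windows do), the AP-1 letters TGANTCA (6.75%), the retinoic acid receptor half-site AGGTCA (14.02%) or a CArG box (1.47%), searched on both strands. Only 1 match was found in the pair of windows, so none overlapped another. These are matches of letters in a short window and say nothing of binding.

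Ctgf, the connective tissue growth factor gene, was the most changed of the 8 with checkpoint therapy. Its lowest, median and highest levels were 98.2, 135 and 170 CPM with PBS, 142, 221 and 254 CPM with tretinoin, and 262, 459 and 680 CPM with ICT. All ICT tumours lay above all PBS tumours, and above all tretinoin tumours too. The log2 fold change against PBS was 1.84 (SE 0.14, 95% interval 1.54 to 2.14, edgeR adjusted p = 2.55e-07) for ICT and 0.69 (SE 0.11, 95% interval 0.46 to 0.92, edgeR adjusted p = 0.000204) for tretinoin. It passed in all 4 name series pairings of each comparison, from 1.57 to 2.09 for ICT and from 0.46 to 0.93 for tretinoin.

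In the combination Ctgf was high in every tumour and widely spread. Its values ran from 224 CPM in tumour 21 to 823 CPM in tumour 25, both non-responders, with a median of 389 CPM and a coefficient of variation of 46.4%, against 25.7% with ICT alone. All 10 combination tumours were above all PBS tumours and 9 of 10 above all tretinoin tumours. Ctgf rose by 1.78 against PBS (SE 0.22, edgeR adjusted p = 3.40e-06) and by 1.09 against tretinoin (SE 0.22, edgeR adjusted p = 0.00334), whereas against ICT the log2 fold change was -0.07 (95% interval -0.53 to 0.40, edgeR adjusted p = 0.893). Over the name series pairings, all of the same sign, it passed in 4 of 4 against PBS (1.60 to 1.96) and in 0 of 4 against tretinoin (0.87 to 1.28). The interaction of the treatments on Ctgf, -0.75 (SE 0.26, edgeR adjusted p = 0.285), did not pass.

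Cyr61, the closest relative of Ctgf among the 8, rose with ICT and did not pass with tretinoin alone. Its lowest, median and highest levels were 76.0, 107 and 151 CPM with PBS, 80.1, 100 and 128 CPM with tretinoin, and 146, 166 and 195 CPM with ICT. Of 10 ICT tumours 8 lay above every PBS tumour, while no tretinoin tumour did. It rose by 0.63 with ICT (SE 0.09, 95% interval 0.44 to 0.82, edgeR adjusted p = 0.000232), and with tretinoin its log2 fold change was -0.15 (95% interval -0.36 to 0.05, edgeR adjusted p = 0.280).

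The combination level of Cyr61 leaned on tumour 25. Its range was 105 to 396 CPM with a median of 151 CPM, and the highest value after that of tumour 25 was 187 CPM. Cyr61 rose by 0.64 against PBS (SE 0.20, edgeR adjusted p = 0.0115) and by 0.80 against tretinoin (SE 0.20, edgeR adjusted p = 0.0127). Without tumour 25 the values were 0.41 (edgeR adjusted p = 0.00976) and 0.57 (edgeR adjusted p = 0.00484), so both rises were smaller and both still passed. Against ICT the log2 fold change was 0.00 (95% interval -0.39 to 0.39). Over the name series pairings, all of the same sign, Cyr61 passed in 2 of 4 for ICT against PBS (0.43 to 0.85), in 1 of 4 for the combination against PBS (0.30 to 0.97) and in 1 of 4 against tretinoin (0.57 to 0.99).

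Dusp1 was among the genes that varied most like both Ctgf and Cyr61 from tumour to tumour. By the correlation of log2 CPM centred within treatment groups over 39 tumours, chosen as the highest among 12123 genes and given without a test, those most like Ctgf were Fam46b (r = 0.80), Dusp1 (r = 0.70) and Sgk1 (r = 0.63). Those most like Cyr61 were Dusp1 (r = 0.72), Zfp36 (r = 0.71) and Fosb (r = 0.65). Dusp1 encodes a phosphatase that switches off MAP kinases, Sgk1 a serum- and glucocorticoid-induced kinase, and Zfp36 a protein that destabilises cytokine mRNAs. The points share library, depth and scaling, and tumour 25 was highest of all in Ctgf, Cyr61 and Dusp1 (137 CPM).

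Dusp1 itself stood at 15.3 to 23.3 CPM with PBS, 20.4 to 31.9 CPM with tretinoin, 41.2 to 84.8 CPM with ICT and 24.97 to 137 CPM with the combination. The ICT tumours lay above all PBS and all tretinoin tumours, as they did for Ctgf. Dusp1, Zfp36 and Fosb are themselves among the 9 immediate early genes in the table, so counts and sums of that list are no separate observation. Of those 9 genes, 5 rose with ICT, 7 rose in the combination against PBS and 7 against tretinoin. With tretinoin alone 3 rose and Fos fell (by 1.10, SE 0.13, edgeR adjusted p = 3.70e-06). Of all genes, 14.1% rose with ICT, 25.7% and 12.3% in the combination against PBS and tretinoin, and 11.5% with tretinoin alone. The summed level of the 9 immediate early genes ranged from 313 to 473 CPM with PBS, 338 to 532 CPM with tretinoin, 379 to 643 CPM with ICT and 451 to 1824 CPM with the combination. The part of this response in the Ctgf and Cyr61 results was not tested. Of 4 fibroblast markers 0 rose and 1 fell with ICT, while 1 rose and 0 fell with tretinoin and in the combination, each against PBS. The shares of all genes falling were 7.15% with ICT, 8.95% with tretinoin and 24.5% in the combination against PBS. For these 4 markers the levels were also summed. Their summed level was 444 to 543 CPM with PBS, 475 to 716 CPM with tretinoin, 385 to 481 CPM with ICT and 380 to 514 CPM with the combination, and their part in the Ctgf result was not tested.

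**Figure D3:**
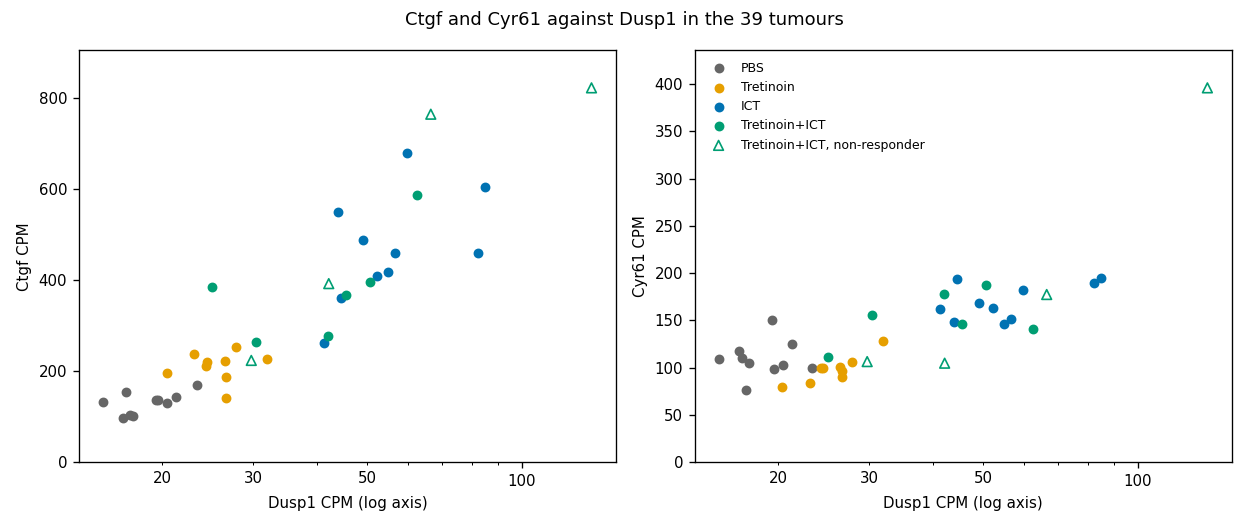
Levels of Ctgf (left) and Cyr61 (right) in CPM on linear axes against Dusp1 in CPM on a log axis, 1 point per tumour, coloured by treatment, with open triangles for combination non-responders. ICT tumours lay to the right of and above the PBS tumours for Ctgf, and tumour 25 was the point at the far right, with 823 CPM of Ctgf and 396 CPM of Cyr61.

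Of the ligands, Tgfb1 rose with ICT and most in the combination. Its lowest, median and highest levels were 47.8, 53.5 and 68.0 CPM with PBS, 54.7, 60.7 and 102 CPM with tretinoin, 53.1, 79.2 and 105 CPM with ICT, and 75.2, 94.3 and 151 CPM with the combination. Every combination tumour was above every PBS tumour, whereas 6 of 10 ICT tumours and 4 of 9 tretinoin tumours were. It rose by 0.46 with ICT (SE 0.11, edgeR adjusted p = 0.00669), by 0.83 in the combination against PBS (SE 0.11, edgeR adjusted p = 4.66e-06) and by 0.57 in the combination against tretinoin (SE 0.13, edgeR adjusted p = 0.00654). Over the name series pairings, all of the same sign, it passed in 1 of 4 for ICT (0.25 to 0.68), in 4 of 4 for the combination against PBS (0.59 to 1.08) and in 2 of 4 against tretinoin (0.35 to 0.82).

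The other Tgfb1 differences did not pass. The log2 fold change was 0.27 for tretinoin against PBS (95% interval 0.05 to 0.48, edgeR adjusted p = 0.0726) and 0.37 for the combination against ICT (95% interval 0.10 to 0.63, edgeR adjusted p = 0.147). With all 39 tumours in one fit the latter passed, at 0.36 (edgeR adjusted p = 0.0436).

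Macrophage markers also rose in the comparisons in which Tgfb1 rose. In the bulk tumours, more or fewer cells of a type and more or less RNA per cell cannot be told apart. The 5 macrophage markers (Csf1r, Cd68, Mrc1, C1qa, C1qb), none of them at 0, summed to 1922 to 2918 CPM with PBS, 2095 to 4251 CPM with tretinoin, 2071 to 4349 CPM with ICT and 2753 to 3995 CPM with the combination. All 5 rose in both ICT arms against PBS, 3 rose in the combination against tretinoin, 2 rose with tretinoin alone and 0 rose in the combination against ICT. All 4 tested neutrophil markers also rose in both ICT arms against PBS. Among all genes tested, 14.1% rose with ICT and 25.7% in the combination, each against PBS. The shares rising were 12.3% in the combination against tretinoin, 11.5% with tretinoin alone and 1.57% in the combination against ICT. PBS tumour 14, tretinoin tumour 33 and ICT tumour 63 were highest for both Tgfb1 and the macrophage sum in their groups. In the combination Tgfb1 was highest in tumour 42 and the macrophage sum in tumour 22. The part of these cells in the Tgfb1 result was not tested. The genes most like Tgfb1, by the measure given for Ctgf, were Smap2 (r = 0.90), Dennd1a (r = 0.89) and Sh3bp1 (r = 0.89).

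Tgfb2, the other ligand measured, was scarce. Its median was 3.82 CPM with PBS, 3.43 CPM with tretinoin, 2.66 CPM with ICT and 3.37 CPM with the combination, and the groups overlapped throughout. Against PBS the log2 fold change with ICT was -0.46 (95% interval -0.82 to -0.10, edgeR adjusted p = 0.0639). DESeq2 placed it past the threshold (adjusted p = 0.0426), and so did edgeR without ICT tumours 63 and 82 (-0.60, adjusted p = 0.0255). Those tumours were chosen after seeing the data. Tumour 63 held the highest Tgfb2 level with ICT, so that fit is no separate evidence of a fall. The edgeR adjusted p was 0.0660 with DESeq2 size factors, 0.0886 without the low-count filter and 0.0608 in the one fit, none of which passed.

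The receptors were among the steadiest of the 8 genes. Tgfbr2 ranged from 298 to 374 CPM over all 39 tumours, with group medians of 321 (PBS), 331 (tretinoin), 344 (ICT) and 341 CPM (combination). Its largest log2 fold change across the 5 treatment comparisons was 0.06 (95% interval -0.04 to 0.15), so a change of a size seen for Smad3 with tretinoin lay well outside its intervals. Tgfbr1 ranged from 70.7 to 128 CPM, with medians between 93.1 and 105 CPM, and its log2 fold changes in those 5 comparisons lay between -0.12 and 0.06. Neither passed in any comparison.

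Smad7, the inhibitory SMAD that TGF-beta induces as negative feedback, did not pass in any comparison. Its group medians were 14.6 (PBS), 13.995 (tretinoin), 12.7 (ICT) and 14.9 CPM (combination). With ICT its log2 fold change was -0.21 (95% interval -0.38 to -0.03, edgeR adjusted p = 0.0777), and in the combination against ICT it was 0.23 (95% interval 0.05 to 0.41, edgeR adjusted p = 0.190). Its interaction, 0.33 (SE 0.11, edgeR adjusted p = 0.295), had the sign opposite to that of Smad3.

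**Figure D4:**
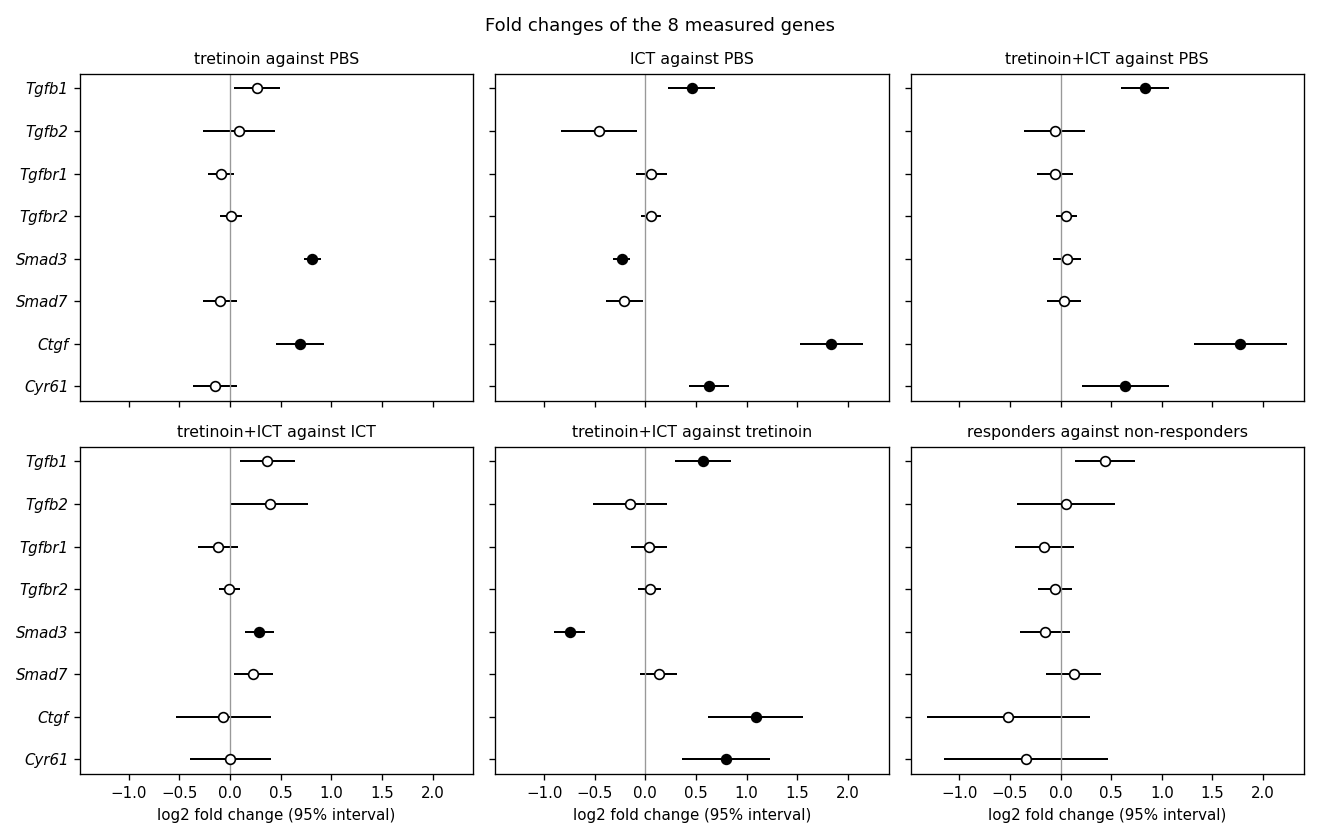
Log2 fold change of each of the 8 genes in the 6 comparisons, with 95% intervals as bars. Filled points had an adjusted p below 0.05 in the edgeR fit over all genes. Ctgf lay farthest to the right against PBS in both ICT arms (1.84 and 1.78), and none of the points for responders against non-responders is filled.

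Read against all genes tested, the 8 genes were called at shares that 8 genes can measure only coarsely. With tretinoin 2 of 8 rose (Smad3 and Ctgf) and 0 fell, where 11.5% of 14340 genes rose and 8.95% fell. With ICT 3 of 8 rose (Ctgf, Cyr61 and Tgfb1) and 1 fell (Smad3), where 14.1% of 14155 rose and 7.15% fell. In the combination against PBS 3 of 8 rose (Ctgf, Tgfb1 and Cyr61) and 0 fell, where 25.7% of 14265 rose and 24.5% fell.

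Against the single agents the shares were as follows. In the combination against ICT 1 of 8 rose (Smad3) and 0 fell, where 1.57% of 14202 rose and 0.422% fell. In the combination against tretinoin 3 of 8 rose (Tgfb1, Ctgf and Cyr61) and 1 fell (Smad3), where 12.3% of 14393 rose and 9.01% fell. Of these comparisons, 3 share the PBS tumours and 3 share the combination tumours.

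At the thresholds of the study, which also ask for a log2 fold change of at least 1 in size, Ctgf alone of the 8 was called by edgeR, and only in the ICT arms. It was called with ICT against PBS (2.35% of genes were), in the combination against PBS (5.92%) and in the combination against tretinoin (2.08%). None of the 8 was called with tretinoin against PBS (1.62%) or in the combination against ICT (0.394%). The paper, however, lists Smad3 among the genes it found changed with tretinoin against PBS. The Smad3 log2 fold change was 0.81 by edgeR and 0.805 by DESeq2, both below the minimum of 1.

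The 6 responders and 4 non-responders to the combination were compared to ask whether these genes differed with outcome. None of the 8 passed, nor did any of the 14604 genes tested by edgeR (0% higher, 0% lower), although 3302 genes and 1 of the 8, Tgfb1, had an unadjusted p below 0.05, and DESeq2 placed 1412 genes past the threshold. The paper, whose methods name DESeq2, reported both genes higher and genes lower in responders. The absence of passing genes therefore belongs to the edgeR fit. Name series 2 held 3 of the 4 non-responders, so outcome and series were partly bound together.

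Tgfb1 was the one gene of the 8 whose levels did not overlap between outcomes. Responders ranged from 91.6 to 151 CPM, with a median of 104 CPM, and the non-responders were at 75.2 (tumour 44), 85.3 (tumour 23), 85.4 (tumour 21) and 88.0 CPM (tumour 25). All 6 responders were therefore higher, a pattern shown by 2.01% of all genes tested, and the gap between the nearest tumours of the groups was small. The log2 fold change was 0.44 (SE 0.13, 95% interval 0.15 to 0.72, edgeR adjusted p = 0.0990). DESeq2 gave an adjusted p of 0.0314, and edgeR without responder tumour 43 gave 0.0368. Tumour 43 was the lowest responder, so leaving it out widened the gap. The other edgeR settings did not pass. Adjusted p was 0.165 with the name series as a block and 0.134 in the one fit of 39 tumours. It was 0.139 without the low-count filter and 0.0988 with DESeq2 size factors. The macrophage marker sum was likewise higher in every responder (3462 to 3995 CPM) than in every non-responder (2753 to 3271 CPM), and its part in the difference was not tested.

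Ctgf was spread most among the non-responders. They stood at 224 (tumour 21), 393 (tumour 23), 765 (tumour 44) and 823 CPM (tumour 25), and the responders at 265 to 588 CPM with a median of 376 CPM. The responders lay wholly inside the range of the non-responders. The log2 fold change was -0.51 (95% interval -1.31 to 0.28, edgeR adjusted p = 0.417), and with each tumour left out in turn it ran from -0.80 without tumour 21 to -0.27 without tumour 25.

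For Cyr61 the direction itself depended on tumour 25, at -0.34 with it (95% interval -1.14 to 0.46) and 0.24 without it. Smad3 was at 101 (tumour 21), 105 (tumour 23), 106 (tumour 44) and 131 CPM (tumour 25) in non-responders and at 82.8 to 119 CPM in responders, 4 of which were below all non-responders. Its log2 fold change was -0.15 (95% interval -0.39 to 0.09, edgeR adjusted p = 0.429). Tgfb2, Tgfbr1, Tgfbr2 and Smad7 overlapped between outcomes, with log2 fold changes from -0.16 to 0.13.

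The wider pathways were read from lists holding 79 genes of the count table, of 97 listed, none of them among the 8. With tretinoin 17 rose and 9 fell of 78 tested, with ICT 11 rose and 16 fell of 77, and in the combination against PBS 25 rose and 24 fell of 78. Over all genes the shares rising and falling were 11.5% and 8.95%, 14.1% and 7.15%, and 25.7% and 24.5% in the same order. The medians of their log2 fold changes were 0.02, -0.06 and -0.02, beside 0.01, -0.02 and -0.01 over all genes. In the combination 6 of 77 rose and 0 fell against ICT, where 1.57% and 0.422% of all genes did, and 8 of 78 rose and 13 fell against tretinoin, where 12.3% and 9.01% did. None passed for outcome or for the interaction.

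**Figure D5:**
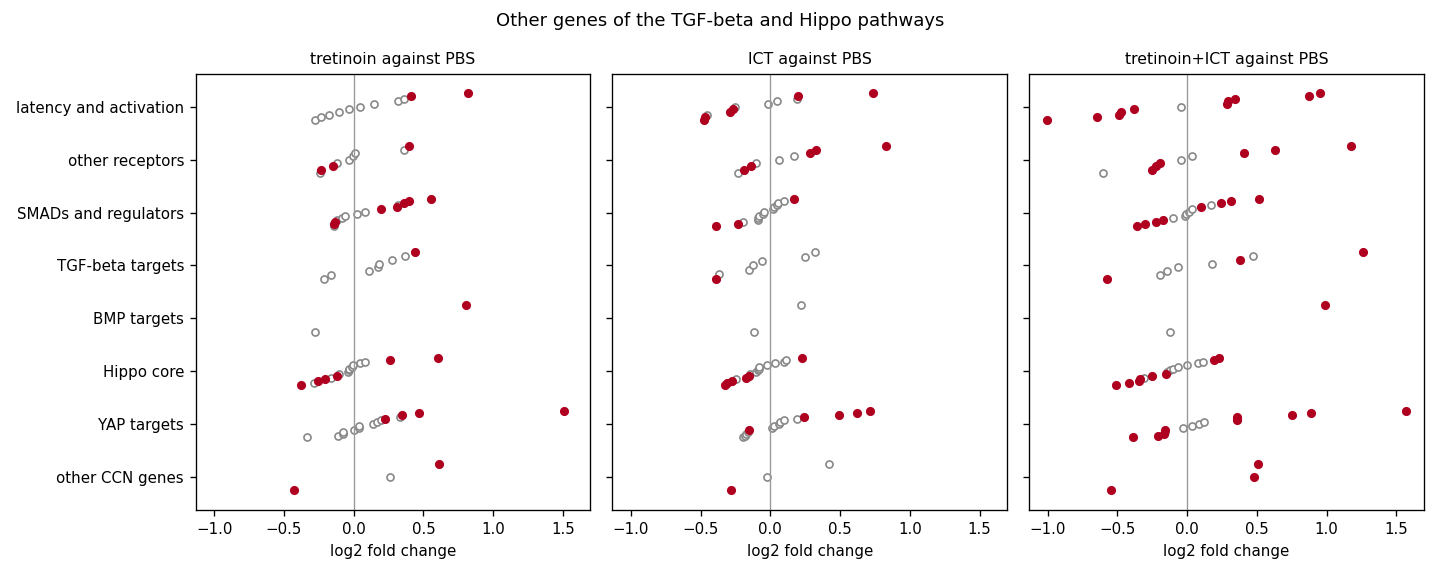
Log2 fold change of the other genes of the TGF-beta and Hippo pathways by functional list, for the 3 comparisons with PBS, 1 point per gene. Filled red points had an adjusted p below 0.05 in the edgeR fit over all genes. Points of both signs were filled in most lists, with Fjx1 the farthest to the right with tretinoin (1.51) and Itgb8 the farthest to the left in the combination (-1.003).

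Genes that hold TGF-beta latent or release it changed in both directions. Lrrc32, which encodes GARP, the anchor of latent TGF-beta on regulatory T cells and platelets, rose with tretinoin (0.82, SE 0.09, edgeR adjusted p = 1.82e-06), fell with ICT (-0.47, SE 0.10) and rose in the combination against ICT (0.75, SE 0.10). These are the signs of Smad3 in the same comparisons, but Lrrc32, unlike Smad3, did not pass for the interaction. Nrros, the matching anchor of macrophages and microglia, rose with ICT (0.74, SE 0.13) and in the combination (0.95, SE 0.13). Itgb8, a subunit of an integrin that activates latent TGF-beta, fell with ICT (-0.47, SE 0.12) and in the combination (-1.003, SE 0.11, edgeR adjusted p = 4.65e-07). Of the 11 genes of this list, 2 rose and 0 fell with tretinoin, 2 rose and 4 fell with ICT, and 5 rose and 5 fell in the combination against PBS. The shares of all genes rising and falling were 11.5% and 8.95%, 14.1% and 7.15%, and 25.7% and 24.5% in the same order.

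Among the SMADs and their regulators, 5 rose and 2 fell of 14 with tretinoin, and 1 rose and 2 fell with ICT. The shares of all genes rising and falling were 11.5% and 8.95% with tretinoin, and 14.1% and 7.15% with ICT. Pmepa1 and Skil, both feedback inhibitors that TGF-beta induces, rose with tretinoin by 0.55 (SE 0.08, edgeR adjusted p = 5.18e-05) and 0.31 (SE 0.05). Pmepa1 fell with ICT (-0.39, SE 0.12) and in the combination against tretinoin (-0.57, SE 0.12). Smad1, a transducer of bone morphogenetic protein (BMP) signals, rose with tretinoin (0.36, SE 0.05), with ICT (0.17, SE 0.06) and in the combination (0.52, SE 0.04, edgeR adjusted p = 3.85e-08). Id3, a BMP target, rose with tretinoin (0.80, SE 0.13) and in the combination against ICT (0.76, SE 0.13).

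Other receptors of the family were less even than Tgfbr1 and Tgfbr2. Acvrl1, an endothelial type I receptor also known as ALK1, rose with ICT (0.83, SE 0.20) and in the combination (1.18, SE 0.18, edgeR adjusted p = 2.77e-05). Its co-receptor Eng rose with tretinoin (0.39, SE 0.07) and in the combination (0.63, SE 0.08). Of 9 such receptors, 1 rose and 2 fell with tretinoin, 3 rose and 2 fell with ICT, and 3 rose and 3 fell in the combination. The shares of all genes rising and falling were 11.5% and 8.95%, 14.1% and 7.15%, and 25.7% and 24.5% in that order. Of 6 endothelial markers, 2 rose with tretinoin, 2 fell with ICT, and 1 rose and 2 fell in the combination against PBS, and their part in these changes was not tested.

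Of the textbook TGF-beta targets, 1 of 8 tested rose and 0 fell with tretinoin, 0 of 7 rose and 1 fell with ICT, and 2 of 8 rose and 1 fell in the combination against PBS. In the combination 1 of 7 rose and 0 fell against ICT, and 1 of 8 rose and 0 fell against tretinoin. Of all genes, 11.5% rose and 8.95% fell with tretinoin, 14.1% and 7.15% with ICT, and 25.7% and 24.5% in the combination against PBS. For the combination the shares were 1.57% and 0.422% against ICT, and 12.3% and 9.01% against tretinoin. So few genes cannot be told from these shares. Adam12, a metalloproteinase gene, fell with ICT (-0.39, SE 0.09, edgeR adjusted p = 0.00496) and in the combination against PBS (-0.57, SE 0.11). Tagln, a contractile protein gene, was among those that rose in the combination against PBS (0.38, SE 0.16, edgeR adjusted p = 0.0471).

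On the YAP side, 4 of 15 further target genes rose and 0 fell with tretinoin, 4 rose and 1 fell with ICT, and 6 rose and 4 fell in the combination against PBS. Over all genes the shares rising and falling were 11.5% and 8.95%, 14.1% and 7.15%, and 25.7% and 24.5% in the same order. The median log2 fold change of the list in the combination was 0.09. Fjx1 rose by 1.51 with tretinoin (SE 0.16, edgeR adjusted p = 1.81e-06) and by 1.57 in the combination (SE 0.16), and the kinase gene Nuak2 rose by 0.72 with ICT (SE 0.14) and by 0.89 in the combination (SE 0.14). Igfbp3, which encodes a binding protein of insulin-like growth factors, rose with tretinoin (0.47, SE 0.14), with ICT (0.49, SE 0.15) and in the combination (0.75, SE 0.15). Of the Hippo kinases, scaffolds and transcription factors, 2 of 16 rose and 4 fell with tretinoin, 1 rose and 5 fell with ICT, and 2 rose and 6 fell in the combination, beside the same shares. Wwtr1, which encodes TAZ, fell with ICT (-0.31, SE 0.08) and in the combination (-0.41, SE 0.09), the arms in which Ctgf and Cyr61 rose. Amotl1, a scaffold that binds YAP, rose with tretinoin (0.60, SE 0.11) and fell in the combination against tretinoin (-0.74, SE 0.13).

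The remaining CCN genes had patterns of their own. Wisp1 (CCN4) fell with tretinoin (-0.43, SE 0.08, edgeR adjusted p = 0.000622), with ICT (-0.28, SE 0.09) and in the combination (-0.54, SE 0.10). Nov (CCN3) rose with tretinoin (0.61, SE 0.12) and in the combination (0.51, SE 0.14), and Wisp2 (CCN5) passed in 1 comparison, rising in the combination against PBS (0.48, SE 0.19, edgeR adjusted p = 0.0426).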

How the data were processed

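Frozen AB1-HA tumours (39) had been homogenised for RNA, and single-end reads were made on a NovaSeq. The authors aligned reads with HISAT2 2.0.4 (after bcl2fastq 2.20.0.422, per the labels) to a genome named mm11 and deposited raw read counts per gene, with neither strand setting nor treatment of multi-mapping reads given in the sources used here. Totals were 14033046 to 37951183 counts per tumour. No pair of tumours within a treatment (171 pairs) had identical columns or agreed within counting noise. Where nothing states separate cultures or litters, p-values measure only the spread between these tumours.

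Each comparison was fitted on its own groups with edgeR 4.0.16 in R 4.3.3 (filterByExpr, TMM, robust quasi-likelihood test, Benjamini-Hochberg over all genes tested, threshold 0.05), and the interaction on all 39 tumours. SE came from the log2 value and its F statistic (absolute value over root F). Levels used TMM factors over 39 tumours and log2 values a prior count of 2. Alternatives were DESeq2 1.42.0, its size factors, no filter, one fit, a log2 fold minimum of 1, a name series block and leaving out tumours. The procedure was tested on simulated data. The 10 genes and all lists were chosen with earlier results of these data known. The text names all 10, the 3 genes most like a member, and from each other list at most the 3 genes with the smallest adjusted p per comparison. A TGF-beta target gene is not reported here.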

Additional observations from a re-analysis of the deposited data

Results flagged for a closer look

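Of 48 sets of tumours checked (8 genes in the 4 treatment groups and both outcomes), 3 held a value far from the rest by Dixon's test, where chance flags about 1 in 20. Tretinoin tumour 33 was at 102 CPM of Tgfb1, with the next at 76.7 CPM. Combination tumour 25 was at 396 CPM of Cyr61, with the next at 187 CPM. The same tumour was at 131 CPM of Smad3 among the 4 non-responders, with the next at 106 CPM. The effect of tretinoin on Smad3 differed with and without ICT, by -0.52 on the log2 scale.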

How the results depend on the processing

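With a log2 fold minimum of 1, the number of the 8 genes passing was 0 with tretinoin (2 without the minimum), 1 with ICT (4), 1 in the combination against PBS (3), 0 against ICT (1) and 1 against tretinoin (4), since most fold changes were smaller. One fit of all 39 tumours gave 2 in the combination against ICT, and DESeq2 gave 1 for outcome. The cause was not tested for either. Leaving out each combination tumour in turn gave 0 to 1 for outcome (1 without tumour 43), and ran from -0.15 to 0.18 for Tgfb2 and from -0.58 to 0.24 for Cyr61. Values near 0 changed sign, namely Tgfbr2 with tretinoin without the low-count filter (-0.000596), Cyr61 in the combination against ICT by DESeq2 (-0.000472) and in the one fit (-0.000992), and Tgfb2 for outcome with the name series as a block (-0.084). Without tumour 25, chosen after seeing the data, the combination gave 0.0034 for Tgfb2 against PBS, 0.00396 for Tgfbr2 and -0.23 for Cyr61 against ICT, and the Cyr61 interaction was -0.067. Leaving out PBS tumour 14 with tretinoin tumour 33, or ICT tumours 63 and 82, also chosen after seeing the data, gave 2 and 5 genes passing. No paired analysis was possible because nothing in the labels ties a tumour number in one group to a tumour in another. Tgfb2 had the fewest reads behind it.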
